A study of Mus musculus with 30 samples.

Results

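A set of 10 genes of the interferon-induced GTPases were followed, chosen by name: the guanylate-binding proteins Gbp2, Gbp3, Gbp4, Gbp5 and Gbp7, and the immunity-related GTPases Igtp, Iigp1, Irgm1, Irgm2 and Ifi47. They are 10 of 55573 gene identifiers in the bulk RNA tables, and each was found there and in every single-cell matrix. Their Ensembl identifiers are Gbp2 ENSMUSG00000028270, Gbp3 ENSMUSG00000028268, Gbp4 ENSMUSG00000079363, Gbp5 ENSMUSG00000105504, Gbp7 ENSMUSG00000040253, Igtp ENSMUSG00000078853, Iigp1 ENSMUSG00000054072, Irgm1 ENSMUSG00000046879, Irgm2 ENSMUSG00000069874 and Ifi47 ENSMUSG00000078920. Both families are GTPases that cells make after interferon gamma, the main cytokine of activated T and NK cells, engages its receptor. Guanylate-binding proteins coat pathogens and their vacuoles and feed inflammasomes, while immunity-related GTPases disrupt such vacuoles and Irgm1, Irgm2 and Igtp regulate the other immunity-related GTPases. In tumours their transcripts are commonly read as a trace of interferon exposure.

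The study used 3 oral squamous carcinoma lines of the mouse, MOC1, MOC1E1 (MOC1esc1 in the growth protocol) and MOC22, grown as tumours in C57BL/6J mice. For single-cell RNA, tumour-bearing mice received isotype control, antiPD1 or antiCTLA4 antibody by intraperitoneal injection on days 3, 6 and 9 after tumour inoculation, with isotype and antiPD1 only for MOC22. Each of these 8 groups is 1 library, and the labels do not say how many mice a library pools. Bulk RNA covers untreated MOC1 tumours, untreated MOC1E1 tumours, MOC1 cells in culture and MOC1E1 cells in culture, with 3 libraries in each of 4 groups. Both antibodies target receptors that restrain T cells. The culture columns carry a name that contains "plusifng", while the labels give no treatment for any culture, so whether the cultured cells had been exposed to interferon gamma is not settled by the labels and every culture value below carries that limit. The sources used here do not say whether the 3 libraries of a bulk group came from separate mice or passages, so the p-values rest on the spread between these libraries alone, which may be technical.

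A position is given for 9 of the members in the RefSeq table for GRCm38.p6, on 3 chromosomes. Gbp5 (chr3:142496934-142522344), Gbp7 (chr3:142530336-142550151), Gbp3 (chr3:142560016-142573213) and Gbp2 (chr3:142620663-142638008) lie close together on chromosome 3, and Gbp4 lies on chromosome 5 (chr5:105115767-105139586). Irgm1 (chr11:48865245-48871420), Ifi47 (chr11:49076587-49096987), Igtp (chr11:58199556-58207592) and Irgm2 (chr11:58214977-58222783) lie on chromosome 11. A RefSeq promoter entry was found for 8 members, and Gbp4 and Iigp1 are named only. The 250 bases before each start were searched on both strands for GAAA, any 2 bases and GAAA again, the core of the interferon-stimulated response element, and for TTCNNNGAA, the gamma-activated site; both are classical elements of interferon-responsive promoters. The response element core was found in 7 of the 8 member promoters, Ifi47 being the exception, and in 2.98% of all 32851 RefSeq promoters. The gamma-activated site was found in 4 of the 8, Gbp5, Gbp7, Igtp and Irgm2, against 7.02% of all promoters, and those 4 promoters also hold the response element core, against 0.332% of all. Members are counted by gene, with a match in any of its promoter entries, and the shares of all promoters are by entry. A match describes the letters only.

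The promoters shown were taken from those that hold a match, so a match in each of them is by selection. Ifi47, whose promoter holds neither element, was left out. Whether the matches go with the members' levels between libraries was not tested. Each line gives the 180 bases before the annotated start, 5′ to 3′ on the gene's strand, from RefSeq, GRCm38.p6, with the matches in capitals; where 2 matches overlap or touch, the capitals run on.
Gbp5 (chr3:142496754-142496933, plus strand): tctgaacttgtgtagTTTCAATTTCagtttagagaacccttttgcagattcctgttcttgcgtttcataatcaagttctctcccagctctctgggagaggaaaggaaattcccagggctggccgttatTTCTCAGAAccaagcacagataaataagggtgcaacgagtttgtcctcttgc
Gbp7 (chr3:142530156-142530335, plus strand): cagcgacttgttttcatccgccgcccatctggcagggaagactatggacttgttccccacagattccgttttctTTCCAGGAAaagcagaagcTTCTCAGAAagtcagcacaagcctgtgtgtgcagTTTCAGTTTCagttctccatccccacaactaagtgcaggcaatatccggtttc
Gbp2 (chr3:142620483-142620662, plus strand): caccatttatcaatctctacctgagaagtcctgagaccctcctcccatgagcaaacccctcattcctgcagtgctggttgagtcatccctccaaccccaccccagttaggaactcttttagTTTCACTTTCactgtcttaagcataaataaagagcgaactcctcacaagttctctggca
Irgm1 (chr11:48871421-48871600, minus strand): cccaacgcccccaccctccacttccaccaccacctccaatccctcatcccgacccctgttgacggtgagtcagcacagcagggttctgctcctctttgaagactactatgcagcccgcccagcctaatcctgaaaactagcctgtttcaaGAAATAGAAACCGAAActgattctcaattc
Igtp (chr11:58199376-58199555, plus strand): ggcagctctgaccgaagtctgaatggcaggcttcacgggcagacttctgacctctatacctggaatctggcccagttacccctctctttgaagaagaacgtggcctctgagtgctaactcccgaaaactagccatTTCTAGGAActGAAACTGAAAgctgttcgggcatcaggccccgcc
Irgm2 (chr11:58214797-58214976, plus strand): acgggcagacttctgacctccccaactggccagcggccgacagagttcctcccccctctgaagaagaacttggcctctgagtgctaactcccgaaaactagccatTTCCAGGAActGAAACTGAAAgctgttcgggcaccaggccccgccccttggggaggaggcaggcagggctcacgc
The response element core lies close to the start in most of them, at 59 to 50 bases before it in Gbp2, 53 to 44 in Gbp7, 34 to 25 in Igtp and 64 to 55 in Irgm2. Irgm1 holds a pair of overlapping cores at 30 to 21 and 24 to 15 bases. Igtp and Irgm2 carry the gamma-activated site and the core side by side, and 20 of the 21 bases from the start of the site to the end of the core are identical between them. Gbp5 has its core farther out, at 165 to 156 bases, with gamma-activated sites at 52 to 44 and at 245 to 237 bases, the latter outside the printed stretch. Gbp3, not printed, holds overlapping cores at 45 to 36 and 39 to 30 bases in 1 of its entries.

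The single-cell libraries hold between 2755 and 4928 barcodes and between 14766019 and 28466596 unique molecular identifiers (UMIs, counts of captured transcripts), and 2694 to 4724 cells per library were kept. Any 2 of the 8 libraries share 7 to 35 barcodes, at most 0.944% of the smaller library. Read depth of the bulk libraries cannot be read from their TPM, a level scaled by transcript length and by the library total. MOC1E1 tumour library 3 stands apart from the other 2 of its group in the members, and the members' tests in tumours are given with and without it. The families hold near-identical paralogs, and how reads or UMIs shared between copies were assigned is not stated in the labels or file headers, so levels of single members are uncertain to that extent.

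In untreated tumours the guanylate-binding proteins were at a similar level in the 3 MOC1 libraries, lower in MOC1E1 libraries 1 and 2, and highest in MOC1E1 library 3. Gbp2 stood at 232, 278 and 235 TPM in MOC1 tumours 3, 4 and 5, against 79.1, 81.2 and 324 TPM in MOC1E1 tumours 1, 2 and 3. Gbp3 was at 80.4, 69.9 and 59.6 TPM in MOC1 and at 38.9, 35.5 and 96.0 TPM in MOC1E1. Gbp4, the member with the widest spread, was at 22.8, 30.3 and 21.2 TPM in MOC1 and at 3.85, 6.72 and 53.6 TPM in MOC1E1. In each of these genes the MOC1E1 values lay on both sides of the MOC1 range, so the groups overlapped. Gbp5, which promotes inflammasome assembly, was at 24.0, 19.8 and 15.4 TPM in MOC1 and at 7.13, 9.18 and 34.0 TPM in MOC1E1. Gbp7 was at 19.0, 19.8 and 14.3 TPM in MOC1 and at 10.3, 12.6 and 31.7 TPM in MOC1E1. The mean of Gbp2 was 248 ± 25.7 TPM (SD, n = 3) in MOC1 and 161 ± 141 TPM (SD, n = 3) in MOC1E1, so the MOC1E1 spread was close to the mean itself.

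The immunity-related GTPases repeated that order of libraries. Igtp was at 142, 154 and 133 TPM in the MOC1 tumours and at 50.9, 53.1 and 212 TPM in the MOC1E1 tumours. Irgm1 was at 221, 230 and 199 TPM in MOC1 and at 102, 103 and 295 TPM in MOC1E1. Irgm2 was at 72.3, 71.9 and 60.04 TPM in MOC1 and at 35.8, 40.8 and 113 TPM in MOC1E1. In these 3 regulatory members, as in every other member, MOC1E1 tumour 3 exceeded every MOC1 tumour while the other MOC1E1 tumours lay below every MOC1 tumour. Ifi47 was at 169, 183 and 148 TPM in MOC1 and at 58.9, 70.7 and 189 TPM in MOC1E1. Iigp1, an effector that is loaded onto vacuoles, was at 81.3, 93.5 and 67.7 TPM in MOC1 and at 46.1, 49.2 and 252 TPM in MOC1E1. Over the 10 members the level in MOC1E1 tumour 3 was 2.58 times (Gbp3) to 10.1 times (Gbp4) the mean of MOC1E1 tumours 1 and 2, and the summed level was 1601 TPM against 433 and 462 TPM.

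**Figure D1:**
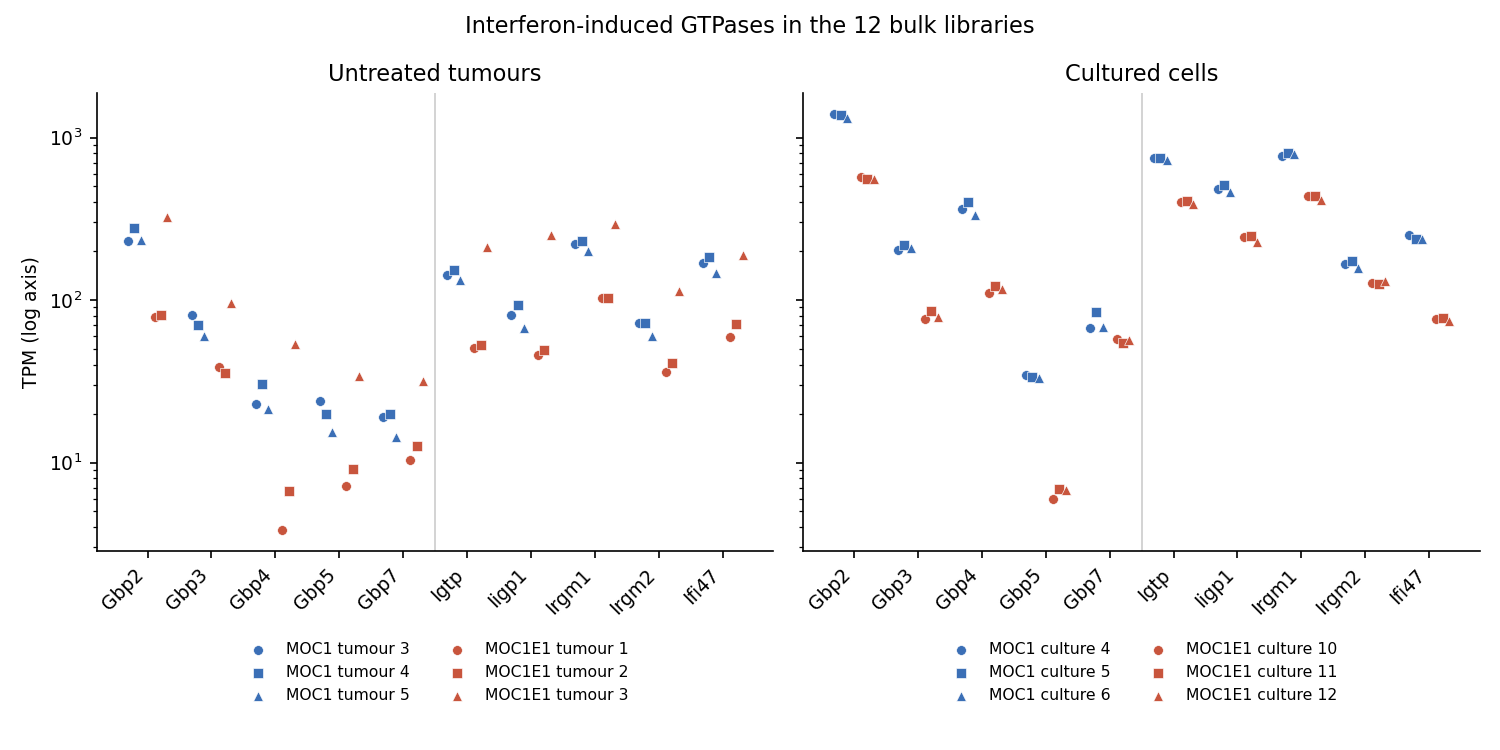
Level of each member in TPM on a log axis, with 1 point per bulk library, untreated tumours on the left and cultured cells on the right; guanylate-binding proteins stand left of the grey line and immunity-related GTPases right of it. MOC1E1 tumour 3 is the highest tumour point of every member and MOC1E1 tumours 1 and 2 are the lowest points, while the culture libraries of each line lie close together.

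With all 6 tumour libraries, none of the 10 members was called different between MOC1E1 and MOC1 tumours by limma on log2(TPM + 1) at an adjusted p of 0.05 or less, against 18.6% of all 15125 genes tested (6.7% higher and 11.9% lower in MOC1E1), and 0 had an unadjusted p under 0.05. Differences below 0 were seen in 9 of the 10, with a median of -0.54 against -0.04 over all genes. Ifi47 had the smallest adjusted p, 0.173, with a difference of -0.84 (SE 0.39), and Iigp1 was at 0.05 (SE 0.59, adjusted p = 0.961). Without MOC1E1 tumour 3, 9 of the 10 were called lower in MOC1E1, against 11.8% of genes called lower in that fit, with a median of -1.12. Gbp4 then differed by -2.06 (SE 0.24, adjusted p = 0.00174), Gbp2 by -1.62 (SE 0.10, adjusted p = 0.000113) and Igtp by -1.44 (adjusted p = 0.000157), and Iigp1 by -0.74 (adjusted p = 0.0127). Gbp7 missed the threshold, at -0.58 (adjusted p = 0.0678). Leaving out any other tumour library gave 0 called members.

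The cell content of the tumours differed beside these values. Summed TPM of 9 T cell markers was 65.4, 60.6 and 52.6 in MOC1 and 26.3, 41.8 and 83.0 in MOC1E1, so MOC1E1 tumour 3 was the highest of the 6 tumours here as well. The 5 NK cell markers summed to 8.03, 8.65 and 6.25 TPM in MOC1 and to 2.99, 5.34 and 8.79 TPM in MOC1E1. Ifng itself was at 1.86, 1.35 and 1.39 TPM in MOC1 and at 0.72, 1.72 and 2.37 TPM in MOC1E1. The 8 macrophage and monocyte markers went the other way within MOC1E1, at 796, 798 and 495 TPM, against 1032 to 1098 TPM in MOC1, and the neutrophil markers were at 31.4, 31.1 and 11.4 TPM against 168 to 221 TPM. Fibroblast markers in MOC1E1 were at 1980, 2421 and 503 TPM, while carcinoma keratin and junction markers stayed within 17031 and 19336 TPM over all 6 tumours. In MOC1E1, 4 of 4 tested neutrophil markers (S100a8 by -3.20) and 4 of 5 leukocyte markers were called lower, and 0 of 9 T cell markers. Without MOC1E1 tumour 3, 4 of 4 neutrophil, 3 of 5 leukocyte and 3 of 9 T cell markers were lower. Of the macrophage and monocyte markers 3 of 8 were called lower in MOC1E1, both with all libraries and without tumour 3. The 3 muscle markers were all called lower too, with a median of -5.02, and summed to 232, 700 and 834 TPM in MOC1 and to 27.4, 33.7 and 0.76 TPM in MOC1E1. The part of cell content in the members' values was not tested, and in bulk RNA fewer cells of a type cannot be told apart from less RNA per cell.

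Across the 6 tumour libraries the members followed each other closely. The Pearson correlation of a member with the members' mean log2(TPM + 1) ran from 0.904 (Iigp1) to 0.992 (Gbp4 and Irgm1), a description over 6 libraries of which 1 sets most of the range. The genes outside the list with the most similar pattern, among 9920 genes with a mean of at least 8 TPM, were Tgtp1 (r = 0.999), Tgtp2 (0.997), Vcam1 (0.997), Rnf19b (0.994), Gbp6 (0.992), Akr1a1 (0.990) and Psmb10 (0.988). Tgtp1 and Tgtp2 are immunity-related GTPases that are near-identical copies of each other, and Gbp6 is a further guanylate-binding protein. Tgtp1 was at 138, 137 and 110 TPM in MOC1 and at 38.4, 43.4 and 254 TPM in MOC1E1. The interferon gamma receptor chain Ifngr1 was at 70.2, 68.1 and 53.7 TPM in MOC1 and at 41.8, 55.4 and 44.7 TPM in MOC1E1.

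Other genes of the pathway were also mostly below the threshold in tumours with all 6 libraries. Of 14 tested other interferon-induced GTPases 0 were called, with a median of -0.43, and of 16 interferon gamma signalling genes 0 were called, with a median of -0.15. Among 22 other interferon gamma targets 1 was lower, Cd274, the ligand of PD-1, by -1.47 (adjusted p = 0.0174 by limma). Among 21 type I interferon response genes 1 was lower, Oasl1 by -1.08 (adjusted p = 0.0369 by limma). Of the 9 tested inflammasome genes downstream of guanylate-binding proteins, 2 were higher, among them Casp1 by 0.90, and 3 were lower, among them Pycard by -1.62 and Il1b by -1.75. Without MOC1E1 tumour 3, 8 of 14 other GTPases, 11 of 22 other targets, 9 of 21 type I genes and 4 of 16 signalling genes were lower in MOC1E1.

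In cultured cells all 10 members were lower in MOC1E1 than in MOC1. Gbp2 was at 1390, 1376 and 1313 TPM in MOC1 cultures 4, 5 and 6 and at 571, 557 and 553 TPM in MOC1E1 cultures 10, 11 and 12. Gbp4 was at 365, 403 and 333 TPM in MOC1 and at 111, 122 and 117 TPM in MOC1E1. Gbp5 was at 34.5, 33.7 and 32.9 TPM in MOC1 and at 5.98, 6.83 and 6.74 TPM in MOC1E1. Gbp5 had the widest gap of the members, a mean 5.17 times higher in MOC1. Ifi47 was at 250, 237 and 236 TPM in MOC1 and at 76.1, 77.2 and 73.9 TPM in MOC1E1, a mean 3.19 times higher in MOC1. Igtp was at 753, 753 and 724 TPM in MOC1 and at 403, 408 and 393 TPM in MOC1E1. Irgm1 was at 765, 801 and 795 TPM in MOC1 and at 436, 435 and 413 TPM in MOC1E1. Gbp7 and Irgm2 had the narrowest gaps, both with means 1.30 times higher in MOC1. Gbp7 was at 67.5, 84.3 and 68.2 TPM in MOC1 and at 57.2, 54.7 and 56.8 TPM in MOC1E1. Irgm2 was at 167, 173 and 158 TPM in MOC1 and at 127, 125 and 131 TPM in MOC1E1. The MOC1 means of Gbp3 and Iigp1 were 2.62 and 2.03 times the MOC1E1 means.

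All 10 culture differences passed the limma test, against 53.4% of all 13975 genes tested (33.2% lower and 20.2% higher in MOC1E1). The median of the members was -1.15 on the log2(TPM + 1) scale, against -0.06 over all genes. Gbp5 fell by 2.21 (SE 0.07, adjusted p = 6.79e-07), Ifi47 by 1.66 (SE 0.04, adjusted p = 3.73e-07) and Gbp4 by 1.64 (SE 0.07, adjusted p = 3.11e-06). At the other end, Irgm2 fell by 0.38 (SE 0.05, adjusted p = 0.000485) and Gbp7 fell by 0.37 (SE 0.09, adjusted p = 0.00932). When the contrast came from 1 fit of all 12 bulk libraries, whose shared spread includes the tumours, 5 of 10 were called. In that fit 5839 of all 13975 genes tested were called. Gbp4 (adjusted p = 0.0589), Igtp (0.0959), Iigp1 (0.109), Gbp7 (0.353) and Irgm2 (0.364) were not called, by limma.

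The fixed lists of the pathway were mostly lower in MOC1E1 cultures too. All 21 type I interferon response genes were lower, with a median of -2.13, the widest of the lists, and those with the smallest p were Ifit3 (-4.78), Oasl2 (-2.41) and Ifit2 (-3.61), which encode antiviral effectors. Of 15 other interferon-induced GTPases 13 were lower, among them Gbp10 (-4.62), Gbp8 (-2.82) and Gbp6 (-1.92). Of 23 other interferon gamma targets 21 were lower and 1 was higher, including the chemokine genes Cxcl9 (-3.78) and Cxcl10 (-2.91) and the serpin gene Serpina3g (-5.41). Of 15 signalling genes 11 were lower and 2 higher, with the receptor chain Ifngr1 at -1.11 and Ciita, the regulator of MHC class II genes, at -1.09. Ifngr1 was at 35.4, 30.8 and 31.1 TPM in MOC1 cultures and at 13.9, 14.8 and 14.8 TPM in MOC1E1 cultures. All 6 tested inflammasome genes were lower, among them Casp4 (-2.11), Gsdmd (-1.64) and Casp1 (-0.96). The 14 ubiquitin-like conjugation genes, whose products direct these GTPases to membranes, split into 6 lower and 6 higher, among them Sqstm1 (-0.58), Map1lc3b (0.61) and Gabarapl2 (0.43).

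**Figure D2:**
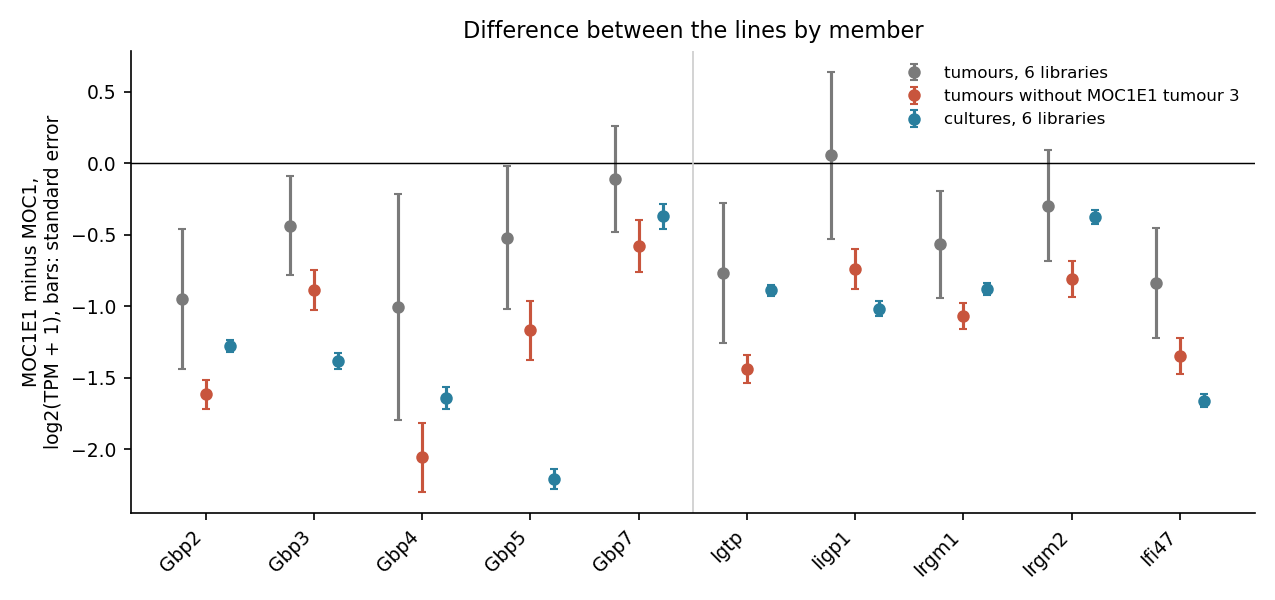
Difference between the lines by member, MOC1E1 minus MOC1, as log2(TPM + 1) with bars of 1 standard error, for all 6 tumour libraries, the 5 tumour libraries without MOC1E1 tumour 3, and the 6 culture libraries. The tumour estimates with all libraries have the longest bars, with Iigp1 at 0.05 the one member above 0, and every culture estimate lies below 0.

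Levels in tumours and cultures came from separately normalised tables and stand side by side without a test. The culture mean was 1.45 (Ifi47) to 14.8 (Gbp4) times the tumour mean in MOC1. In MOC1E1 it was 0.389 (Gbp5) to 5.46 (Gbp4) times the tumour mean, and Ifi47, at 0.712, was the other member below 1. The gap between the lines itself was compared between tumours and cultures in 1 fit of 12 libraries, in which the tumour difference minus the culture difference was above 0 for all 10 members and passed the threshold for 0, against 16.8% of 16813 genes (10.2% above and 6.61% below). The median was 0.48, and Gbp5 was the farthest, at 1.69 (SE 0.58, adjusted p = 0.0682). The smallest unadjusted p-values of the members by limma were 0.0133 for Gbp5 and 0.0364 for Gbp3. The share of all genes with such values was not counted. Without MOC1E1 tumour 3, 4 members were above 0 and 6 below, with a median of -0.20. In that fit 3012 of all genes tested passed the adjusted threshold, against 2828 of 16813 with all 12 libraries. The 5 members among the 3012 were Gbp5 (1.04) and Gbp3 (0.50) above, and Gbp2 (-0.34), Irgm2 (-0.43) and Igtp (-0.55) below. Without MOC1E1 tumour 1, Gbp5 passed, at 2.09 (adjusted p = 0.0192 by limma), as did 2809 of all genes tested.

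In single cells, transcripts were summed over all cells of a class in a library and are given as CPM, a count scaled to the total UMIs of that class. A T cell cluster had Cd3e in at least 60% of its cells, and clusters were named from fixed markers after clustering without the members and the interferon lists. With 1 library per group no test is possible, and all intervals, exact Poisson for levels and exact conditional binomial for ratios, are 95% intervals that cover counting error only. The MOC1E1 libraries hold T cells, NK-like, macrophage and monocyte-like, neutrophil-like and dendritic-like cells, with cell numbers in the isotype, antiPD1 and antiCTLA4 libraries of 896, 1706 and 1972 T cells, 539, 686 and 132 NK-like cells, 924, 1391 and 369 macrophage and monocyte-like cells, and 693, 547 and 253 neutrophil-like cells. The MOC1 and MOC22 libraries are at least 94.7% T cells and hold too few myeloid or NK-like cells to compare. The classes were checked against defining markers. Cd3e was at 1195 CPM in MOC1E1 isotype T cells and at 8.001, 3.94 and 4.43 CPM in NK-like, macrophage and monocyte-like and neutrophil-like cells, Ncr1 was at 784 CPM in NK-like cells, C1qa at 844 CPM in macrophage and monocyte-like cells and S100a8 at 26530 CPM in neutrophil-like cells. The dendritic-like class was less clean: Cd3e was at 76.6, 228 and 23.8 CPM with isotype, antiPD1 and antiCTLA4. Its cluster 11 had Cd3e in 26.5% and Foxp3 in 16.7% of cells and Cd209a in 82.2%, and its top 10 genes by fold held 3 dendritic markers and 0 of other classes. Ranked against MOC1E1 clusters other than T cells, they held 2 dendritic and 3 T cell markers.

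Within the MOC1E1 isotype library the members ran highest in neutrophil-like cells and lowest in NK-like cells. The 10 members summed to 2239 CPM (2153 to 2328) in neutrophil-like, 1349 CPM (1320 to 1378) in macrophage and monocyte-like, 743 CPM (719 to 768) in T, 597 CPM (561 to 633) in dendritic-like and 344 CPM (319 to 371) in NK-like cells. Neighbours in this order did not overlap in their counting intervals. The order is of class sums, and single clusters spread widely. Neutrophil-like clusters 6, 10 and 12 were at 3095, 1472 and 481 CPM, and macrophage and monocyte-like clusters ran from 571 to 2319 CPM. The order of the first pair turned in the share of cells with a UMI of any member at 1000 UMIs per cell, which was 51.1% in macrophage and monocyte-like and 47.4% in neutrophil-like cells of that library. In each of the 3 MOC1E1 libraries 8 of the 10 members were highest in neutrophil-like cells. Iigp1 was an exception in all 3, Gbp4 with isotype and antiCTLA4, and Gbp3 with antiPD1, at 119 CPM in neutrophil-like and 138 CPM in macrophage and monocyte-like cells. Gbp4 was at 59.4 CPM in neutrophil-like and 78.3 CPM in T cells of the isotype library, and at 116 CPM in neutrophil-like and 122 CPM in macrophage and monocyte-like cells of the antiCTLA4 library. Iigp1 was nearly absent from neutrophil-like cells, with 0, 1 and 0 UMIs in the isotype, antiPD1 and antiCTLA4 libraries, where 3 UMIs would be 2.66, 3.47 and 10.9 CPM. In macrophage and monocyte-like cells Iigp1 was at 52.2, 99.7 and 65.3 CPM, and in T cells at 33.1, 23.3 and 8.3 CPM.

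**Figure D3:**
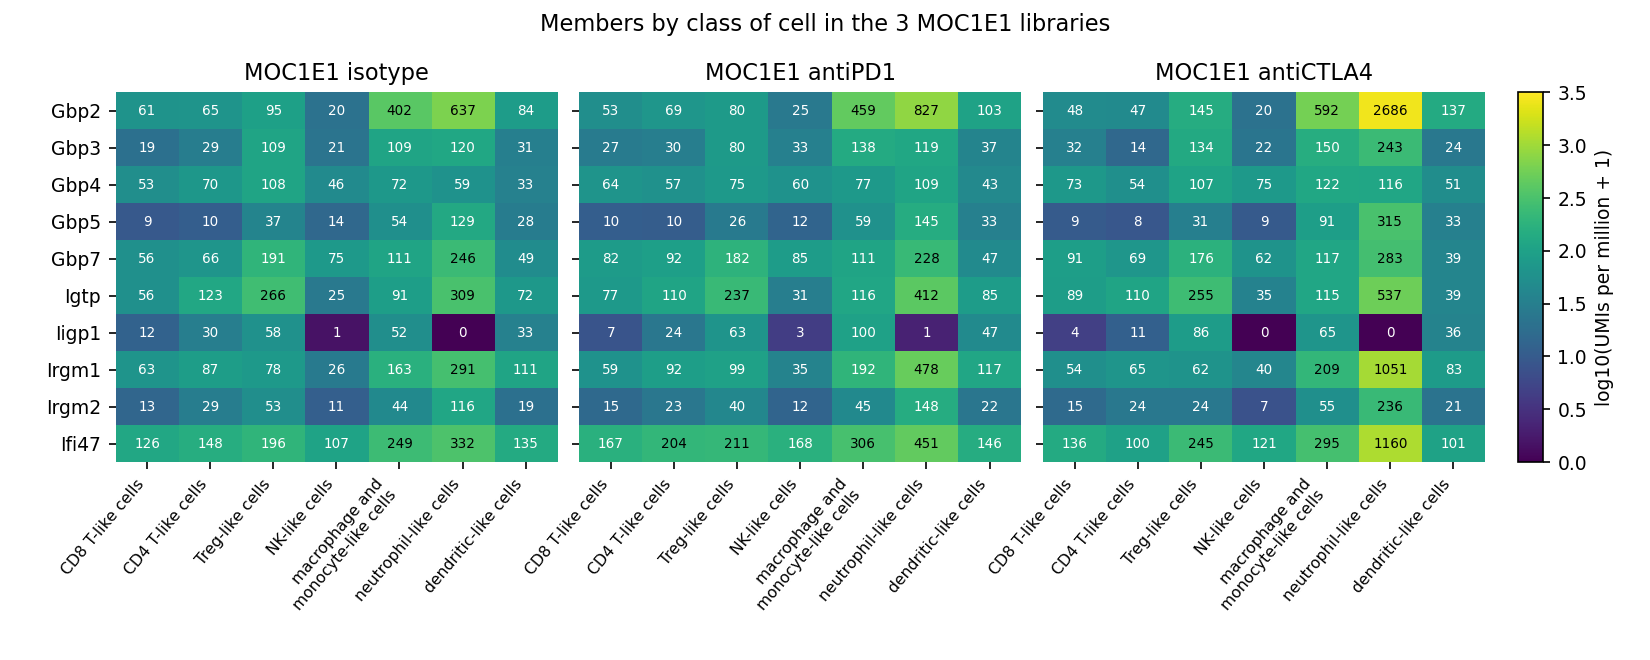
Level of each member in CPM, printed as such and coloured as log10(CPM + 1), by class of cell in the 3 MOC1E1 libraries. The neutrophil-like column is the brightest for most members and is dark for Iigp1, and the NK-like column is dim for most members.

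Neutrophil-like cells of MOC1E1 tumours had the widest difference between treatments. The summed members were at 2239 CPM with isotype, 2917 CPM (2804 to 3033) with antiPD1 and 6627 CPM (6327 to 6938) with antiCTLA4, a log2 ratio to isotype of 0.38 (0.30 to 0.46) and 1.57 (1.48 to 1.65). Gbp2 was at 637, 827 and 2686 CPM, a log2 ratio of 2.08 with antiCTLA4. Irgm1 was at 291, 478 and 1051 CPM, Ifi47 at 332, 451 and 1160 CPM and Gbp5 at 129, 145 and 315 CPM, with antiCTLA4 ratios of 1.85, 1.80 and 1.30. Igtp was at 309, 412 and 537 CPM, and Gbp7 stood nearly level, at 246, 228 and 283 CPM. With antiCTLA4, 8 of 9 members with at least 50 UMIs were 1.5-fold or more higher and 0 lower, against 14.5% of 3677 genes higher and 38.6% lower, and the members' median was 1.03 against -0.36 over all genes. With antiPD1, 2 of 9, Gbp4 and Irgm1, were 1.5-fold higher, against 6.61% of genes higher and 12.9% lower.

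The same was seen in single clusters and at equal depth. Cluster 6 of this class, led by Cxcr2 and S100a9, was at 3095, 4346 and 10078 CPM with isotype, antiPD1 and antiCTLA4, and cluster 10, led by Cxcl2, Hcar2 and Rsad2, at 1472, 2775 and 4365 CPM. Cluster 12, led by Retnlg, was at 481 and 624 CPM with isotype and antiPD1 and held 29 cells with antiCTLA4. The 3 clusters made up 57.0%, 13.4% and 29.6% of the class with isotype, 35.8%, 41.9% and 22.3% with antiPD1, and 47.4%, 41.1% and 11.5% with antiCTLA4. After thinning each cell to 1000 UMIs, the share of cells with a UMI of any member was 47.4%, 65.1% and 80.3%, against 53.7%, 67.3% and 80.2% before thinning; 187, 140 and 131 shallower cells were left out. In NK-like cells, the class with the lowest level, the thinned shares were 28.1%, 36.8% and 31.1%. The antiCTLA4 class was small and shallow, with 275826 UMIs in all and a median of 976 UMIs per cell against 1367 with isotype. T cell transcripts moved with the treatment in this class: Cd3e was at 4.43, 30.1 and 76.1 CPM and Cd8a at 0, 17.3 and 76.1 CPM, while T cells of the antiCTLA4 library had 1327 CPM of Cd3e and 533 CPM of summed members. The part of T cell transcripts in the neutrophil-like values was not tested.

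Other interferon genes of neutrophil-like cells are given for comparison. Irf1, a transcription factor induced by interferon gamma, was at 673, 734 and 1617 CPM, and Cd274 at 348, 811 and 1432 CPM. The chemokine gene Cxcl10 was at 757, 769 and 2567 CPM. With antiCTLA4, 10 of 16 other interferon gamma targets were 1.5-fold higher and 0 lower (median 0.80), and 9 of 20 type I interferon response genes were higher and 2 lower (median 0.44). With antiPD1, 13 of 20 type I genes were higher and 0 lower (median 0.84), among the most abundant Isg15, at 1799 with isotype, 3685 with antiPD1 and 4042 CPM with antiCTLA4.

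Macrophage and monocyte-like cells had smaller differences in the same direction. The summed members were at 1349, 1603 (1578 to 1629) and 1812 CPM (1746 to 1881), a log2 ratio of 0.25 (0.21 to 0.29) with antiPD1 and 0.43 (0.36 to 0.49) with antiCTLA4. Gbp2 was at 402, 459 and 592 CPM, Gbp5 at 53.9, 58.9 and 91.2 CPM and Irgm1 at 163, 192 and 209 CPM. Gbp7 was at 111, 111 and 117 CPM, again nearly level. With antiPD1 1 of 10 members, Iigp1, was 1.5-fold higher, against 2.87% of genes higher and 2.54% lower, and with antiCTLA4 2 of 10 were, Gbp4 at 72.4 against 122 CPM and Gbp5, against 8.61% higher and 10.8% lower. Cluster 3, led by Cxcl9 and C1qb, had the highest level, at 2319, 2523 and 2656 CPM, and made up 23.3%, 32.7% and 44.7% of the class. Cluster 4 (Ace, Ear2) was at 1544, 1500 and 1645 CPM, cluster 5 (F13a1, Fn1) at 571, 715 and 731 CPM and cluster 14 (Ccl8, Mmp12) at 592, 865 and 822 CPM. The antiCTLA4 values were thus higher than isotype in 4 of 4 clusters and the antiPD1 values in 3 of 4. Cd3e in this class was at 3.94, 26.03 and 40.7 CPM and the median depth at 6948, 6642 and 3566 UMIs, and the part of either was not tested.

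NK-like cells, a source of interferon gamma themselves, had the lowest levels. The summed members were at 344, 465 (440 to 491) and 389 CPM (334 to 451), a log2 ratio of 0.43 (0.30 to 0.57) with antiPD1 and 0.18 (-0.07 to 0.42) with antiCTLA4, the latter an interval that includes 0. Ifi47 was at 107, 168 and 121 CPM and Gbp7 at 74.5, 85.5 and 61.5 CPM. Gbp4 was at 46.0, 60.1 and 74.7 CPM. Gbp2, among the highest members in myeloid cells, was at 20.002, 24.6 and 19.8 CPM here. With antiPD1, 2 of 9 members were 1.5-fold higher, Gbp3 and Ifi47, against 1.96% of genes higher and 3.22% lower, and 6 of 12 type I interferon response genes were higher (median 0.57). With antiCTLA4, 2 of 6 members, Gbp4 and Irgm1, were 1.5-fold higher, against 6.3% of genes higher and 9.53% lower, from 132 cells. Dendritic-like cells stood at 597, 679 and 563 CPM, with a log2 ratio of 0.19 (0.07 to 0.30) with antiPD1 and -0.08 (-0.31 to 0.14) with antiCTLA4, from 205, 277 and 58 cells; with stricter limits on cells the latter was -0.37. Cluster 11 of this class was at 511 CPM with isotype and 597 CPM with antiPD1, and the part of T cell transcripts was not tested.

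**Figure D4:**
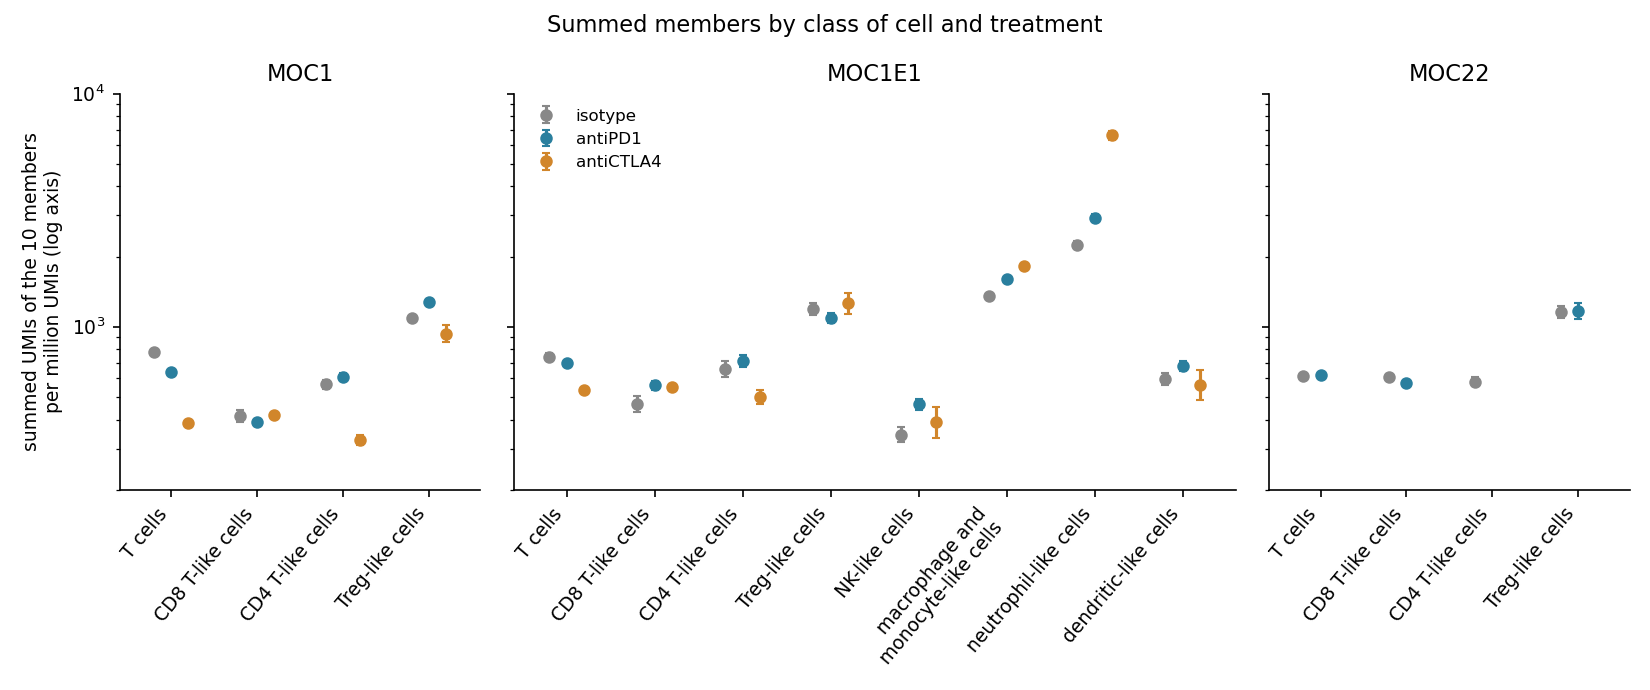
Summed level of the 10 members in CPM on a log axis, by model, class and treatment, with exact 95% Poisson intervals for counting error. Neutrophil-like cells of the MOC1E1 antiCTLA4 library are the highest point, at 6627, and Treg-like cells lie above the CD8 T-like cells of their library in all 3 models.

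T cells of MOC1E1 tumours went the other way with antiCTLA4. Their summed members were at 743, 696 (679 to 713) and 533 CPM (519 to 547), a log2 ratio of -0.09 (-0.15 to -0.03) with antiPD1 and -0.48 (-0.54 to -0.42) with antiCTLA4. With classes named from single transcripts the antiPD1 ratio was 0.011. Of the 4 T cell clusters with at least 50 cells in both libraries, 3 were higher with antiPD1 (median 0.06), and 2 were higher and 2 lower with antiCTLA4 (median -0.11). All 10 members were lower with antiCTLA4 than with isotype and 4, Gbp2, Gbp5, Iigp1 and Irgm2, were 1.5-fold lower, against 12.3% of genes lower and 6.94% higher. Iigp1 was at 33.1, 23.3 and 8.3 CPM, Irgm2 at 29.9, 20.8 and 15.9 CPM and Gbp2 at 81.3, 59.0 and 46.8 CPM. Ifi47 was at 156, 188 and 122 CPM. With antiPD1 0 of 10 passed 1.5-fold, against 3.48% higher and 3.53% lower. Within T cells, CD4 T-like cells were lower with antiCTLA4 too, at 657, 710 and 501 CPM. CD8 T-like cells were higher with both antibodies, at 467, 562 and 551 CPM. Treg-like cells, which carry the regulatory T cell gene Foxp3, were at 1192, 1093 and 1265 CPM, with a log2 ratio of 0.09 (-0.09 to 0.26) for antiCTLA4. The makeup changed beside it, as Treg-like cells were 6.49%, 6.82% and 1.81% of kept cells and CD8 T-like cells 6.49%, 12.9% and 39.4%. Of the CD8 T-like cells, 69.4% of those with isotype lay in cluster 8 and 86.3% of those with antiCTLA4 in cluster 1. Cluster 8, led by Dapl1, Cd8b1 and Tcf7, was at 549, 662 and 696 CPM.

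MOC1 T cells are compared by cluster. Clusters 3, 6 and 14 had more markers of other classes than of T cells among their top 10 genes. They held 21.3%, 22.9% and 7.54% of the T cells with isotype, antiPD1 and antiCTLA4. Those genes were ranked against the other MOC1 cells, which are mostly T cells. Ranked against MOC1E1 clusters other than T cells, their top 10 genes held 3, 5 and 1 T cell markers and 0 of other classes. In 10 of the 11 clusters with at least 50 cells in both libraries the summed members were higher with antiPD1 than with isotype, with a median log2 ratio of 0.29. Over all T cells the sum was nevertheless lower with antiPD1, 780 CPM (770 to 791) against 638 CPM (628 to 649). With antiCTLA4 the sum was 387 CPM (379 to 395), a log2 ratio of -1.01 (-1.05 to -0.98), and 2 of 8 clusters were higher and 6 lower, with a median of -0.28. Without clusters 3, 6 and 14, a choice made after seeing the data, the ratios were -0.35 and -1.13. All 10 members were 1.5-fold lower with antiCTLA4 over all T cells, against 15.9% of genes lower and 5.56% higher, and 1 of 10, Gbp5, with antiPD1, against 8.32% lower and 3.2% higher. Igtp was at 176, 132 and 67.7 CPM, Gbp2 at 88.6, 79.6 and 41.7 CPM, Ifi47 at 182, 177 and 117 CPM and Iigp1 at 19.5, 14.5 and 1.1 CPM.

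Treg-like cells, with the highest level of the CD8 T-like, CD4 T-like and Treg-like classes, were a smaller part of the treated libraries. Clusters 0 and 8, which make up this class, were 33.3%, 19.2% and 2.46% of kept MOC1 cells and CD8 T-like cells 9.96%, 27.7% and 47.2%. Cluster 0, led by Foxp3 and Il2ra, was at 1131 CPM with isotype and 1384 CPM with antiPD1, and cluster 8, led by Foxp3 and Lrrc32, at 974, 1117 and 808 CPM. Cluster 11, led by Lmo4 and Sdc1, was at 790 CPM with isotype (234 cells) and 1520 CPM with antiPD1 (56 cells), the widest gap of the clusters. Cluster 17, led by Trdv4 and Cd163l1, was at 1297 CPM with isotype, from 65 cells. Both lie outside the 3 classes. Cluster 17 with isotype and cluster 11 with antiPD1 were above both Treg-like clusters of their library. Among CD4 T-like clusters, cluster 4, led by S1pr1, was at 755, 945 and 623 CPM, and cluster 2, led by Tnfsf11 and Tnfsf8, at 298, 405 and 299 CPM. Cluster 4 made up 68.4%, 50.7% and 8.87% of CD4 T-like cells and cluster 2 25.8%, 41.0% and 85.4%. Cluster 6, led by Gzmk, was at 539, 679 and 443 CPM, and cluster 13, led by Xcl1 and Ccl1, at 210, 257 and 272 CPM. Cluster 7 (Hspa1a, Igfbp4) was at 739, 754 and 398 CPM and cluster 10 (Egr1, Egr2) at 604, 699 and 351 CPM. Ifng over all MOC1 T cells was at 59.0, 192 and 220 CPM, which is the reverse order to the summed members. Most single clusters did not keep that order with antiPD1. Both Ifng and the members were then higher than with isotype in clusters 0, 2, 7, 8, 10, 11, 12 and 13. In cluster 2 Ifng was at 137 CPM with isotype and 700 CPM with antiPD1. Both were lower in cluster 3, and in clusters 4 and 6 Ifng was lower and the members higher.

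**Figure D5:**
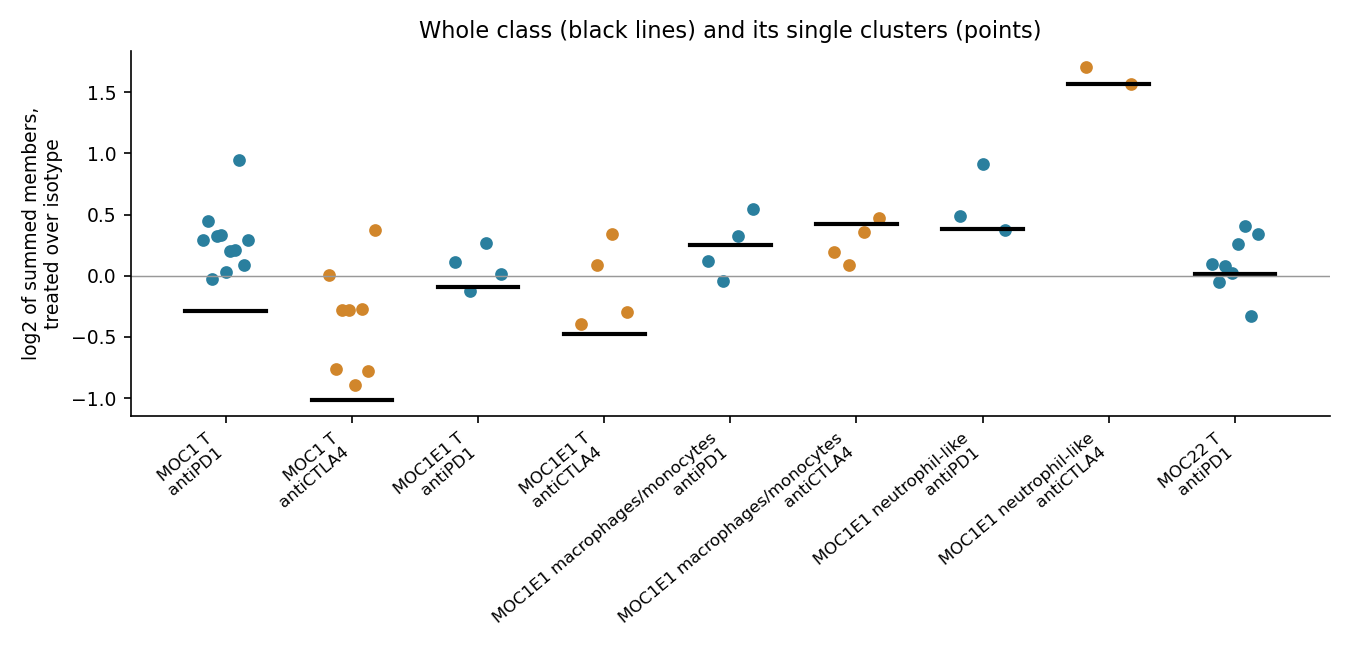
log2 ratio of the summed members' CPM, treated over isotype, for whole classes (black lines) and for each of their clusters with at least 50 cells in both libraries (points). The MOC1 T cell lines lie below all of their points. The neutrophil-like antiPD1 line, at 0.38, lies among its points and the antiCTLA4 line, at 1.57, lies at the lower of its 2 points.

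Each MOC1 library carries 4 hashtags, and the labels do not say what a tag marks. Summed members of T cells by hashtag ran from 756 to 799 CPM with isotype, from 543 to 731 CPM with antiPD1 and from 375 to 406 CPM with antiCTLA4, so the 3 ranges did not overlap. Foxp3 did not overlap either, at 213 to 284, 79.1 to 183 and 14.0 to 25.2 CPM. Cd8a was at 170 to 184, 490 to 854 and 770 to 999 CPM. The part of cell makeup in the members' ranges was not tested. In Treg-like cells the summed members by hashtag ran from 1009 to 1125 CPM with isotype and from 1247 to 1352 CPM with antiPD1. These ranges again did not overlap, in the opposite direction to all T cells. In CD8 T-like cells the ranges overlapped, at 363 to 438, 326 to 514 and 413 to 431 CPM. Most of these CD8 T-like cells lay in a different cluster in each library, 73.3% in cluster 6 with isotype, 57.2% in cluster 5 with antiPD1 and 81.5% in cluster 1 with antiCTLA4. In CD4 T-like cells the hashtags ran from 463 to 664 CPM with isotype, from 613 to 637 CPM with antiPD1 and from 279 to 353 CPM with antiCTLA4, so the antiCTLA4 range lay below the others. In MOC1 T cells with antiCTLA4, 15.9% of all 10782 genes were 1.5-fold lower and 5.56% higher, with a median of -0.12. Beside that, 18 of 19 type I interferon response genes were 1.5-fold lower (median -1.42). So were 6 of 10 other interferon-induced GTPases (median -0.91). Of the other interferon gamma targets 4 of 20 were (median -0.33), not far from the share of all genes.

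Treg-like cells had more of the members than CD8 T-like cells in all 8 libraries, by 1.89 to 3.28 times in the sum. They were above CD4 T-like cells in 7 of 7 libraries, by 1.54 to 2.86 times. With isotype, Treg-like and CD8 T-like cells were at 1087 and 414 CPM in MOC1, at 1192 and 467 CPM in MOC1E1 and at 1153 and 611 CPM in MOC22. Gbp3 was 2.92 to 5.88 times higher in Treg-like than in CD8 T-like cells, Gbp5 2.54 to 5.10 times and Igtp 2.08 to 7.03 times. Ifi47 was the flattest of the members that were higher in all 8, at 1.06 to 2.08 times. Irgm1 was higher in 7 of 8 libraries, at 0.863 to 1.73 times, and was above the CD4 T-like level in 3 of 7, at 0.880 to 1.86 times. Iigp1 was at 33.3 against 2.01 CPM in the MOC1 isotype library and at 58.1 against 11.6 CPM in the MOC1E1 isotype library. In the ranking within each model, the CD8 T-like classes of MOC1 and MOC22 include clusters with more markers of other classes than of T cells. The MOC1E1 classes do not, and the MOC1E1 libraries also hold myeloid and NK-like cells. Ranked against MOC1E1 clusters other than T cells, those clusters held T cell markers and 0 of other classes.

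In MOC22 the summed members of T cells hardly differed between antiPD1 and isotype, at 623 CPM (611 to 635) and 616 CPM (604 to 627), a log2 ratio of 0.02 against 0.10 for the median gene. The guanylate-binding proteins were at 225 CPM with isotype and 273 CPM with antiPD1, and the immunity-related GTPases at 391 and 350 CPM. All 5 guanylate-binding proteins were higher with antiPD1, and 4 of the 5 immunity-related GTPases were lower, while Irgm1 was higher, at 46.1 and 58.5 CPM. Gbp3 was at 21.9 and 34.7 CPM, the member past 1.5-fold, against 14.7% of genes higher and 9.85% lower. Gbp7 was at 69.3 and 95.3 CPM, and Ifi47 at 203 and 173 CPM. By cluster, 6 of 8 were higher with antiPD1, with a median log2 ratio of 0.09, and Treg-like cells were at 1153 and 1171 CPM. Clusters with more markers of other classes than of T cells among their top 10 genes held 48.8% and 49.8% of these T cells. Those genes were ranked against the other MOC22 cells, nearly all T cells. Against MOC1E1 clusters other than T cells, clusters 0, 1, 5 and 6 among them held 6, 5, 7 and 7 T cell markers. They then held 0 markers of other classes. Cluster 1, led by Dapl1, held 64.8% of the isotype and 0.769% of the antiPD1 cells that are CD8 T-like.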

How the data were processed

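The bulk tables deposited by the authors hold TPM per Ensembl gene, and the single-cell matrices hold UMI counts per gene and barcode as deposited, with hashtag counts in MOC1. Per the submitters' processing notes, Cell Ranger 3.0.2, Seurat, Trimmomatic 0.36, kallisto 0.46.0 and DESeq2 were used; their settings are not given in the sources used here. Members and gene lists were chosen with earlier results of these data known. Named genes are all 10 members, the 3 genes of a list with the smallest p (bulk) or the highest level (cells), and the 8 genes most like the members, of which 1 is not reported here. Ifng, Ifngr1 and, in cells, Irf1, Cd274, Cxcl10 and the cell markers were named after their values were seen.

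The bulk fit took genes that reached 1 TPM in 3 libraries, on the log2(TPM + 1) scale, by limma-trend (version 3.58.1 under R 4.3.3) with Benjamini-Hochberg adjustment; folds of low genes are understated. On simulated data, 64 of 100 changes of 1 and 89 of 100 of 2 on the log2 scale were recovered in tumours (8 false calls in 15125 genes), and 92 and 97 of 100 in cultures (13 in 13975).

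Cells were kept from 300 genes upwards if mitochondrial UMIs did not exceed 10%. Scrublet's automatic threshold called 0 to 5 doublets in a library; instead the top-scoring barcodes, 0.8% for each 1000 cells, were dropped (61 to 193), which was decided with the data in view. Each model was clustered with scanpy 1.11.5 on Python 3.11.15 (2000 variable genes, 30 components, 15 neighbours, leiden resolution 1) without the members and interferon lists. A class needed 50 cells per library and a gene 50 UMIs for a ratio. Receptor and exome samples were not analysed here.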

Additional observations from a re-analysis of the deposited data

Results flagged for a closer look

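In MOC1E1, the ratio of summed members to isotype had different signs in different classes of cells with the same antibody, and since each group is 1 library the difference was not tested. With antiPD1 the log2 ratio to isotype was 0.43 in NK-like, 0.25 in macrophage and monocyte-like, 0.38 in neutrophil-like and 0.19 in dendritic-like cells, against -0.09 in T cells. The T cell value was 0.011 with classes named from single transcripts, and 3 of 4 T cell clusters were higher with antiPD1, with a median of 0.06. With antiCTLA4 it was 0.43 in macrophage and monocyte-like and 1.57 in neutrophil-like cells, against -0.48 in T cells, where 2 clusters were higher and 2 lower, with a median of -0.11. Between models, CD8 T-like cells with antiPD1 stood at 0.27 in MOC1E1 and -0.09 in MOC22. Within the MOC22 class, clusters 0 and 5 were higher with antiPD1, at 0.10 and 0.08, and cluster 10 was lower, at -0.33. Cluster 1 made up 64.8% of that class with isotype and 0.769% with antiPD1. Treg-like cells with antiPD1 stood at 0.23 in MOC1 and -0.13 in MOC1E1. These differences between models were not tested either.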

How the results depend on the processing

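Leaving out each library in turn gave 0 to 9 called members in tumours, 10 to 10 in cultures and 0 to 5 for the tumour minus culture difference. Counts of all genes called in those fits ran from 1273 to 2645, from 6168 to 6653 and from 2011 to 3012. MOC1E1 tumour 3 had the most weight: leaving out 1 library moved Iigp1 between -0.74 and 0.47, and in the tumour minus culture difference Gbp2 between -0.34 and 0.67, Igtp between -0.55 and 0.47 and Irgm2 between -0.43 and 0.38, each lowest without it and highest without MOC1E1 tumour 1. A fit of all 12 libraries called 5 members in cultures in place of 10, and 5839 of all genes in place of 7461. In tumours that fit called 5285 genes in place of 2820. Leaving out 1 tumour library other than MOC1E1 tumour 3 gave 1273 to 1821 in tumours. Without MOC1E1 tumour 1, Gbp5 alone passed in the difference. Pseudocount 0.1, no filter and quantile normalization left the members' counts of calls as they were. Quantile normalization moved the split of all genes called higher and lower from 1014 and 1806 to 1957 and 1646 in tumours, from 2821 and 4640 to 4285 and 3547 in cultures and from 1717 and 1111 to 1563 and 1223 in the difference of the 2.

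In single cells, naming classes from single transcripts gave MOC1E1 T cells 0.011 in place of -0.09 with antiPD1 and -0.37 in place of -0.48 with antiCTLA4, macrophage and monocyte-like cells 0.37 and 0.58, dendritic-like cells 0.44 with antiPD1 and neutrophil-like cells 1.66 with antiCTLA4; Gbp2 in dendritic-like cells with antiCTLA4 turned to -0.11. Stricter cell limits (500 genes, 5% mitochondrial UMIs) gave dendritic-like cells -0.37 with antiCTLA4 in place of -0.08. Dropping T clusters 3, 6 and 14 gave MOC1 T cells -0.35 and -1.13 in place of -0.29 and -1.01. CD8 T-like cells of MOC1 with antiCTLA4 ran from -0.15 with doublets kept to 0.23 with all genes clustered. The cause of these shifts was not tested. No paired analysis was possible because the tumour columns carry the numbers 3, 4 and 5 in MOC1 and 1, 2 and 3 in MOC1E1, the culture columns 4 to 6 and 10 to 12, and as a set these differ from the replicate numbers of the labels. Single-cell values rest on 1 library per group, and counting intervals do not cover differences between mice.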

Other observations

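A cluster of MOC1E1 cells led by Gzmc, Gzmg and Gzmf, which was given no cell type name, held 24, 21 and 241 cells with isotype, antiPD1 and antiCTLA4. Its summed members with antiCTLA4 were at 493 CPM (453 to 537), of which guanylate-binding proteins made up 249 CPM and immunity-related GTPases 244 CPM, and Iigp1 had 3 UMIs. Cd3e was at 26.4 CPM and Ncr1 at 270 CPM in these cells.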
